A study of Homo sapiens with 6 samples.

Results

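The translation initiation factor genes were taken as the 52 gene symbols of the count table that begin with EIF followed by a digit from 1 to 6, out of 56303 symbols. Kinases of eIF2 were left out, as were 72 processed copies, which are named after the parent gene with P and a number. The 3 inhibitors EIF4EBP1, EIF4EBP2 and EIF4EBP3 were kept. The rule used names only and no measured value, though the family was chosen with earlier results of these data known. RNA-seq of SW480 cells, a line established from a human colon adenocarcinoma, was used to compare cells that carry a nonsilencing short hairpin RNA (shCtrl, 3 libraries) with cells that carry a hairpin against RBM39, a splicing factor that binds RNA (shRBM39, 3 libraries). Both were made by lentiviral infection and puromycin selection and are described in the study's methods as stable clonal lines, so a difference between the hairpins and a difference between the lines cannot be told apart. The replicates are labelled 1 to 3 and come from replicate experiments of each line, and p-values measure the spread between these samples only.

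Translation initiation brings the small ribosomal subunit, the initiator methionyl-tRNA and the 5′ end of an mRNA together. The cap-binding protein eIF4E, the scaffold eIF4G and the helicase eIF4A form the eIF4F complex on the mRNA, while eIF2 with GTP carries the tRNA, eIF2B reloads eIF2 with GTP, and eIF3 holds the small subunit ready for both. In many mRNAs of the translation machinery, the first transcribed base is a C that is followed by an unbroken run of C and T, the 5′ terminal oligopyrimidine tract, through which their translation follows mTOR activity.

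The start sites of some members carry such a run and those of others do not, which is why both kinds are shown here. The sequences are RefSeq promoter windows on GRCh38.p14, each with 10 bases before the annotated start base and 20 bases from it on, and capitals mark the run that begins with C at the start base. The first 6 have a run of at least 5 bases and the last 4 have none.
EIF3D (chr22:36529147-36529176, minus strand): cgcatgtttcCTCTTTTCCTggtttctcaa
EIF2S3 (chrX:24054946-24054975, plus strand): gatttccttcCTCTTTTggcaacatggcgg
EIF3F (chr11:7987327-7987356, plus strand): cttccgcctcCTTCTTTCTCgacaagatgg
EIF4B (chr12:53006446-53006475, plus strand): tcatccgggtCTTTTgcgttctctttccct
EIF3K (chr19:38619178-38619207, plus strand): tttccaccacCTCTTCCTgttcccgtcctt
EIF2A (chr3:150546777-150546806, plus strand): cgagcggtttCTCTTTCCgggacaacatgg
EIF4A3 (chr17:80147109-80147138, minus strand): cggcagcggcacagcgaggtcggcagcggc
EIF2B1 (chr12:123633667-123633696, minus strand): gtacggaagtgcgccggaagtggggtgcgg
EIF4G1 (chr3:184314596-184314625, plus strand): gcggggagccggaaatggttgtggactacg
EIF1 (chr17:41688875-41688904, plus strand): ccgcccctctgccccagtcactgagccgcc

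The libraries held 18042924 to 20428901 counts. RBM39 itself had 441, 448 and 435 CPM in shCtrl and 266, 276 and 292 CPM in shRBM39, a log2 fold change of -0.67 (SE 0.038, edgeR's quasi-likelihood test, adjusted p = 1.24e-16), which is a fold of 0.630. CPM are counts brought to a common library size, with the trimmed mean of M values (TMM) as scaling. The 6 epithelial markers EPCAM, KRT8, KRT18, KRT20, CDX2 and VIL1 had counts in every library. They summed to 10809 to 11565 CPM in shCtrl and 13812 to 14356 CPM in shRBM39, most of it KRT8 and KRT18. KRT20 had only 0.148 to 0.546 CPM in shCtrl and 0.919 to 1.45 CPM in shRBM39, while the intestinal transcription factor CDX2 had 21.3 to 22.4 and 4.65 to 5.56 CPM. The 4 fibroblast markers summed to 5.71 to 5.79 and 8.31 to 10.7 CPM, nearly all of it COL1A1, with COL1A2, COL3A1 and DCN each at most 0.149 CPM. The 3 leukocyte markers summed to 15.3 to 16.3 and 16.1 to 17.4 CPM, from CD68, with PTPRC at 0 and CD3E at or near 0. The part of these markers in the results was not tested. In a bulk library, fewer cells of a kind and less RNA per cell cannot be told apart.

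Of the 52 members, 49 had enough counts to be tested, and 34 passed an adjusted p of 0.05 in edgeR's quasi-likelihood test over all 18243 tested genes, 22 of them higher and 12 lower in shRBM39. That is 69.4% of the tested members, against 59.1% of all tested genes, so a call on its own says little about a member. By direction, 44.9% of the tested members were higher and 24.5% lower, against 29.2% and 29.9% of all genes. The median log2 fold change was 0.14 over the tested members and -0.01 over all tested genes. The values of the groups did not overlap for 37 members, or 75.5%, against 63.3% of all genes. With libraries scaled by their totals alone, which moved the median of all genes by -0.12, the split of calls was 20 higher and 20 lower. EIF1AY, a Y-linked copy of EIF1AX, and EIF4E1B, an eIF4E of the germline, had at most 2 counts in any library. EIF4E3, an atypical cap-binding protein, had 9, 6 and 12 counts in shCtrl and 0, 1 and 3 in shRBM39, too few for the count filter. DESeq2 tested 50 members and edgeR without that filter 52. Each called 13 lower rather than 12, and none of the 49 changed its call, so the added call lies outside the 49.

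**Figure D1:**
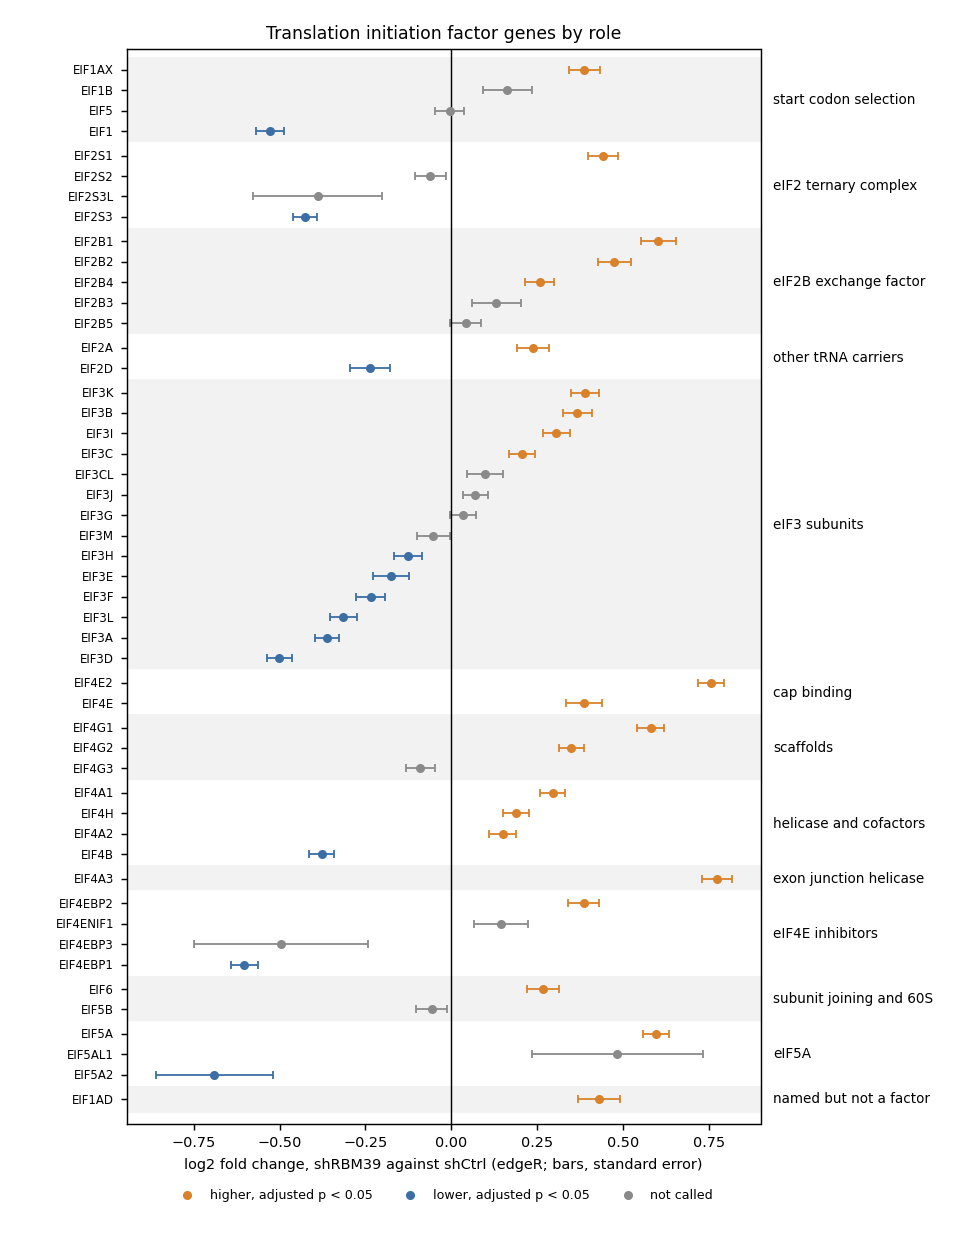
Log2 fold change of each tested member, shRBM39 against shCtrl, with its standard error, grouped by role. Orange points were higher and blue points lower at an adjusted p of 0.05, and grey points were not called. The 5 eIF2B subunits lie above 0 with TMM scaling, though EIF2B5 lies at -0.082 with library totals alone, while the eIF3 subunits run from -0.50 to 0.39.

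The family as a whole took 1.44% to 1.45% of the deposited counts in shCtrl and 1.32% to 1.34% in shRBM39. After TMM scaling, the summed level of the members was 13723 to 14095 CPM and 13803 to 14078 CPM, and the groups overlapped. Whether the total moved thus depended on the scaling. The make-up of the sum, which does not depend on it, differed between the groups. EIF3A alone gave 18.4% to 18.7% of the family's counts in shCtrl and 14.3% to 14.5% in shRBM39, and the 5 members with most counts gave 49.5% to 50.3% and 45.6% to 45.9%.

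Start codon selection was examined next, with gene positions on GRCh38 as deposited with the counts. The genes of this step diverged, with EIF1 lower, EIF1AX higher and EIF5 with a log2 fold change of -0.005. EIF1 (chr17:41688885-41692668, plus strand) encodes the small factor that keeps the scanning ribosome from settling on a wrong start codon, and it had 133, 134 and 127 CPM in shCtrl and 88.4, 94.5 and 90.9 CPM in shRBM39. The groups did not overlap, and EIF1 fell with a log2 fold change of -0.53 (SE 0.041, adjusted p = 2.9e-13 in edgeR's quasi-likelihood test). Its close relative EIF1B had a log2 fold change of 0.16 and an adjusted p of 0.05001, just above the threshold, and it passed with the replicate number as a block, with both GC corrections (0.18 each) and in 2 of the 6 fits without 1 library. Without shCtrl replicate 2 its log2 fold change was 0.091. EIF1AX, which stabilises the scanning complex, rose by 0.39 on the log2 scale (SE 0.046). EIF5, the protein that triggers GTP hydrolysis on eIF2, had an SE of 0.042 and was not called.

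Of the 3 subunits of eIF2, 1 rose, 1 fell and 1 was not called. EIF2S1 (chr14:67359997-67386516, plus strand), the alpha subunit that stress kinases phosphorylate, had 66.3, 68.4 and 68.3 CPM in shCtrl and 93.5, 87.6 and 94.2 CPM in shRBM39. All shRBM39 libraries lay above all shCtrl libraries, with a log2 fold change of 0.44 (SE 0.043, adjusted p = 8.45e-11 in edgeR's quasi-likelihood test). EIF2S3 (chrX:24054716-24077971, plus strand), the gamma subunit that binds GTP and the tRNA, had 422, 426 and 427 CPM in shCtrl and 312, 319 and 317 CPM in shRBM39. Here all shRBM39 libraries lay below, with a log2 fold change of -0.43 (SE 0.036, adjusted p = 1.98e-12 in edgeR's quasi-likelihood test). EIF2S2, the beta subunit, had 834, 894 and 889 CPM in shCtrl and 765, 838 and 904 CPM in shRBM39, and its groups overlapped. Its log2 fold change of -0.061 was not called, but EIF2S2 was called lower without shRBM39 replicate 3 (-0.12), with library totals (-0.19) and in both limma fits on RPKM (-0.19 each), and stood at 0.0025 without shRBM39 replicate 1. The copy EIF2S3L had 1.63 to 2.78 CPM and a log2 fold change of -0.39 that did not pass (SE 0.19), and its reads may be shared with EIF2S3.

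Of the 5 subunits of eIF2B, the factor that exchanges GDP for GTP on eIF2, 3 rose and 2 were not called. EIF2B1 (chr12:123620406-123633766, minus strand), the alpha subunit that takes part in sensing phosphorylated eIF2, had 32.8, 35.4 and 31.7 CPM in shCtrl and 48.8, 50.4 and 52.5 CPM in shRBM39. The groups did not overlap, and the log2 fold change was 0.60 (SE 0.052, adjusted p = 3.61e-12 in edgeR's quasi-likelihood test). EIF2B2 (chr14:75002911-75012366, plus strand), the beta subunit, had 40.2, 37.3 and 39.5 CPM in shCtrl and 55.4, 53.7 and 53.1 CPM in shRBM39. Again no shRBM39 library reached down to the control range, with a log2 fold change of 0.47 (SE 0.048, adjusted p = 1.99e-10 in edgeR's quasi-likelihood test). EIF2B4, the delta subunit, rose by 0.26 (SE 0.042). The catalytic pair EIF2B3 and EIF2B5, the gamma and epsilon subunits, had log2 fold changes of 0.13 and 0.042 and were not called. The proteins EIF2A and EIF2D, which can deliver tRNA without eIF2, moved apart, with log2 fold changes of 0.24 (SE 0.046) and -0.24 (SE 0.058).

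eIF3, the largest of the factors, had 14 tested genes, of which 4 rose, 6 fell and 4 were not called. EIF3D (chr22:36510850-36529436, minus strand), a subunit that can itself bind the mRNA cap, had 371, 353 and 357 CPM in shCtrl and 249, 262 and 254 CPM in shRBM39. The lowest control library was above the highest knockdown library, and the log2 fold change was -0.50 (SE 0.037, adjusted p = 9.54e-14 in edgeR's quasi-likelihood test). EIF3A, the scaffold subunit, fell, with a log2 fold change of -0.36 and mean levels of 2590 ± 16.4 CPM and 2014 ± 12.4 CPM (SD, n = 3). EIF3L fell as well, with a log2 fold change of -0.31. So did EIF3F, EIF3E and EIF3H, with log2 fold changes of -0.24, -0.18 and -0.13. The calls of EIF3E and EIF3H were lost without shRBM39 replicate 1, where their log2 fold changes were -0.10 and -0.081, and that of EIF3H also with the GC correction, at -0.076. The GC correction moved EIF3F to -0.13, which was still called. EIF3B and EIF3I rose by 0.37 and 0.30 on the log2 scale, and EIF3K, which pairs with EIF3L, rose by 0.39. EIF3C, whose reads may be shared with its near copy EIF3CL, rose by 0.21, a call that was lost in both limma fits on RPKM, at 0.082. EIF3G, EIF3J, EIF3M and EIF3CL had log2 fold changes from -0.053 to 0.10 and were not called.

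Levels of the eIF3 genes can be set side by side only per length. In CPM per kilobase of the canonical GENCODE transcript, the level of EIF3C was 411 ± 12.6 in shCtrl and 474 ± 13.7 in shRBM39 (mean ± SD, n = 3), that of EIF3A 389 ± 2.47 and 302 ± 1.87, and that of EIF3G 388 ± 17.4 and 397 ± 7.93. EIF3D stood at 192 ± 4.97 and 136 ± 3.52, and at the low end EIF3M stood at 20.9 ± 0.365 and 20.2 ± 1.85 and EIF3F at 15.6 ± 0.192 and 13.3 ± 0.569. The subunits of this single complex thus spanned levels from 15.6 to 411 in shCtrl, leaving out the near copy EIF3CL. Both the range and the order depend on the length used, and which transcripts SW480 cells hold was not tested. EIF3F had 108 CPM in shCtrl, beside 109 CPM for EIF3E, but a canonical transcript of 6920 bases against 2022. In the deposited RPKM, which divide by the merged exons of a gene, EIF3A had 380.2 and EIF3C 179 in shCtrl. EIF3A and EIF3G, level with each other per canonical transcript in shCtrl, stood apart in shRBM39.

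**Figure D2:**
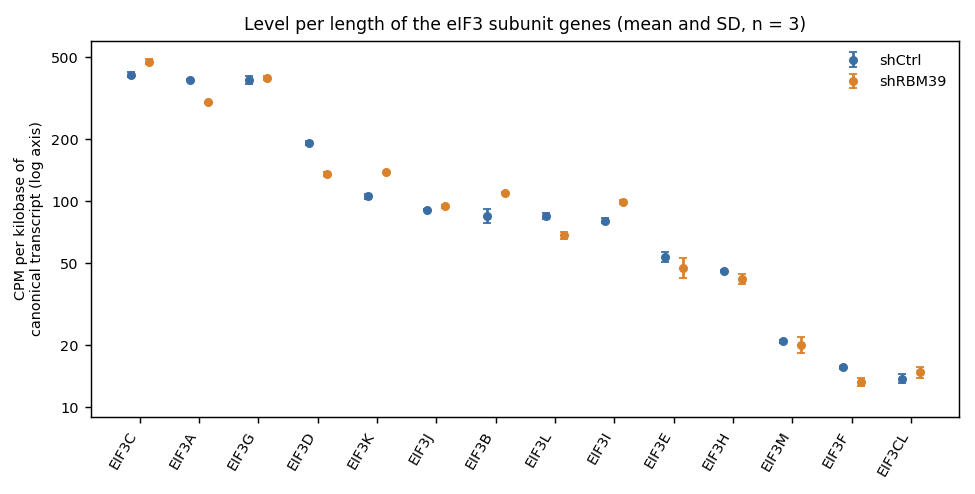
Level of each eIF3 gene in CPM per kilobase of its canonical transcript, on a log axis, as mean and SD of 3 libraries per group (blue, shCtrl; orange, shRBM39). The orange point lies below the blue one for EIF3A, EIF3D and EIF3L and above it for EIF3B, EIF3I and EIF3K.

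Cap recognition came next. Both cap-binding genes that passed the count filter rose. EIF4E2 (chr2:232550052-232583644, plus strand), also called 4EHP, binds the cap without joining eIF4G and is known for repressing translation, and it had 157, 152 and 155 CPM in shCtrl and 258, 268 and 257 CPM in shRBM39. The groups stood well apart, with a log2 fold change of 0.75 (SE 0.037, adjusted p = 2.09e-18 in edgeR's quasi-likelihood test). EIF4E, the cap-binding subunit of eIF4F, rose by 0.39 on the log2 scale, from 41.6 ± 1.95 CPM to 54.2 ± 4.25 CPM (SD, n = 3). Within each library, the log2 ratio of EIF4E to EIF4E2 in RPKM was -2.87 ± 0.060 in shCtrl and -3.24 ± 0.13 in shRBM39 (SD, n = 3), with no overlap. An exact two-sided permutation test of 3 against 3 libraries gave p = 0.1, the smallest it can give, for this and each of the other 5 ratios below, and 0.1 after adjustment over the 6.

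Inhibitors of eIF4E were split between the relatives. EIF4EBP1 (chr8:38030341-38060365, plus strand), which holds eIF4E away from eIF4G until mTOR phosphorylates it, had 217, 214 and 204 CPM in shCtrl and 133, 145 and 139 CPM in shRBM39. All knockdown libraries were below all control libraries, and the log2 fold change was -0.60 (SE 0.04, adjusted p = 4.82e-15 in edgeR's quasi-likelihood test). EIF4EBP2, its relative with the same function, rose by 0.38 on the log2 scale, from 55.4 ± 2.54 CPM to 72.4 ± 2.14 CPM (SD, n = 3). The RPKM ratio of EIF4EBP1 to EIF4EBP2 went from 25.8 to 13.01, a difference of -0.99 in the log2 ratio. EIF4EBP3 had 0.766 to 1.59 CPM, shares its exons with a readthrough transcript of ANKHD1, and was not called, with a log2 fold change of -0.50 (SE 0.25). EIF4ENIF1, which carries eIF4E into the nucleus, had a log2 fold change of 0.14 and was not called.

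The scaffolds and the helicase were mostly higher. EIF4G1 (chr3:184314495-184335358, plus strand), the scaffold that bridges the cap, the helicase and eIF3, had 584, 579 and 555 CPM in shCtrl and 882, 872 and 812 CPM in shRBM39. The groups did not overlap, with a log2 fold change of 0.58 (SE 0.039, adjusted p = 6.08e-15 in edgeR's quasi-likelihood test). EIF4G2, a relative that lacks the eIF4E site, rose by 0.35 (SE 0.036), while EIF4G3 had a log2 fold change of -0.091 and was not called. The RPKM ratio of EIF4G1 to EIF4G3 rose from 5.62 to 8.93, without overlap. EIF4A1 and EIF4A2, the paralogs of the helicase that unwinds the 5′ leader, rose by 0.29 and 0.15 on the log2 scale, and the log2 ratio between them by 0.15, also without overlap. The reads of EIF4A1 may include those of a readthrough transcript with SENP3. Of the helicase's cofactors, EIF4H rose by 0.19, and EIF4B fell, with a log2 fold change of -0.38 and mean levels of 1687 ± 17.04 CPM and 1299 ± 18.6 CPM (SD, n = 3). With library totals alone EIF4A2 and EIF4H kept their sign but not their call, at 0.025 and 0.065.

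EIF4A3 (chr17:80135214-80147183, minus strand) is a relative of the same helicase that serves in the exon junction complex, which is laid down on mRNA by splicing. It had 73.7, 65.6 and 68.7 CPM in shCtrl and 118, 118 and 119 CPM in shRBM39. This was the largest fitted log2 fold change of the tested members with TMM scaling, 0.77 (SE 0.043, adjusted p = 6.54e-17 in edgeR's quasi-likelihood test), and the shCtrl libraries lay well below those of shRBM39.

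Late factors and eIF5A followed. EIF5A (chr17:7306999-7312463, plus strand), the hypusine-bearing protein that helps the ribosome through difficult peptide bonds, had 383, 360.3 and 359 CPM in shCtrl and 571, 549 and 543 CPM in shRBM39. The groups did not overlap, and the log2 fold change was 0.59 (SE 0.038, adjusted p = 1.85e-15 in edgeR's quasi-likelihood test). Its paralog EIF5A2 was low and fell, from 3.67 ± 0.625 CPM to 2.28 ± 0.323 CPM (SD, n = 3), with a log2 fold change of -0.69 (SE 0.17). The RPKM ratio of EIF5A to EIF5A2 was 201 in shCtrl and 486 in shRBM39, and the groups did not overlap. The near copy EIF5AL1, which may take reads of EIF5A, had 1.05 to 2.35 CPM and was not called. EIF6, which keeps free large subunits from joining, rose by 0.27 (SE 0.045), and EIF5B, the GTPase that joins the subunits, had a log2 fold change of -0.058 and was not called. EIF1AD (chr11:65996545-66002176, minus strand) carries the family name because its protein resembles eIF1A and is not known as a factor. It had 19.9, 20.4 and 19.98 CPM in shCtrl and 26.5, 27.9 and 26.9 CPM in shRBM39, again without overlap, and a log2 fold change of 0.43 (SE 0.061, adjusted p = 2.4e-07 in edgeR's quasi-likelihood test).

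**Figure D3:**
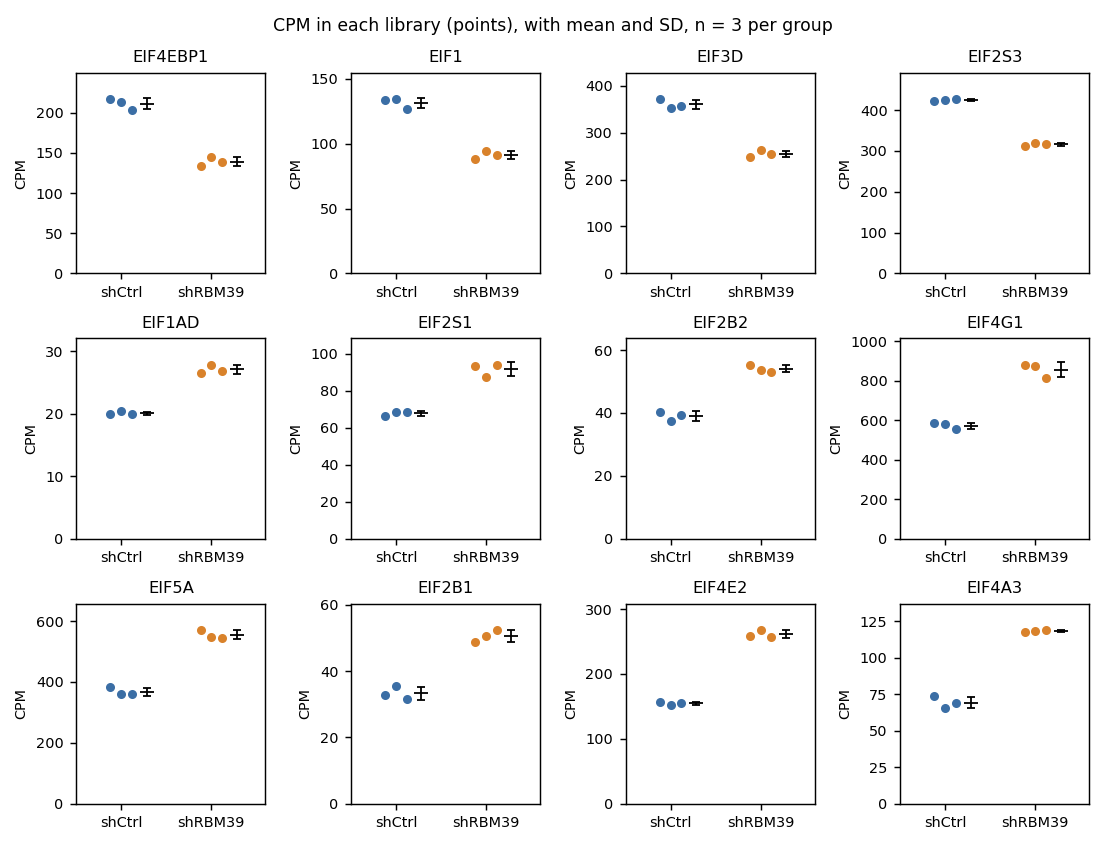
CPM of the 12 called members whose absolute log2 fold change is 0.4 or more and whose mean is 5 CPM or more, in each of the 6 libraries (points), with the mean and SD beside them, each axis starting at 0. The groups do not overlap in any of the 12 panels: EIF4EBP1, EIF1, EIF3D and EIF2S3 are lower in shRBM39 and the other 8 higher. The panels were chosen by the same values, so this separation is largely part of the choice. The 12 come from 49 tested members. Of all 18243 tested genes, 33.3% were called with an absolute log2 fold change of 0.4 or more, with no limit on CPM.

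Among the pairs of relatives, the largest shift was that of EIF5A over EIF5A2, by 1.28 in the log2 RPKM ratio. The ratio of EIF1 to EIF1B went the other way, from 3.89 to 2.41, a difference of -0.69. A ratio within a library does not depend on how libraries are scaled, but it shows only that the relatives changed unequally.

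Partners and regulators of initiation outside the family were taken from a list of 29 genes, of which 28 were tested. Of these, 21 passed the test, 17 higher and 4 lower, that is 60.7% higher and 14.3% lower, against 29.2% and 29.9% of all tested genes. This list, and that of elongation and termination genes, was drawn up with earlier results of these data known. The shares are therefore a description and not an independent test. PAIP1, which bridges poly(A)-binding protein and eIF4A, rose by 0.56 (SE 0.051), and BZW1, a mimic of eIF5, rose by 0.55 (SE 0.04). PABPC1, the poly(A)-binding protein that closes the mRNA loop with eIF4G, fell with a log2 fold change of -0.57 (SE 0.036), from 1786 ± 23.1 CPM to 1204 ± 28.7 CPM (SD, n = 3). PDCD4, an inhibitor of eIF4A, fell as well, with a log2 fold change of -0.40 (SE 0.044). Of the 14 genes for elongation and termination, 13 were tested, 7 rose and 5 fell, that is 53.8% and 38.5% against the same 29.2% and 29.9%. EEF1A2 and TSFM, a tissue-restricted elongation factor and a mitochondrial one, rose by 0.54 and 0.52. EEF2 and EEF1A1, the main translocation and tRNA delivery factors, fell with log2 fold changes of -0.51 and -0.34. Of the 4 kinases of eIF2, EIF2AK2, which senses double-stranded RNA, and EIF2AK1 rose, by 0.45 and 0.093, and EIF2AK3 and EIF2AK4 were not called.

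The members were then sorted by the start-site run shown at the beginning. A run was counted where the annotated start base is C and at least the next 4 bases are each C or T, read on the gene's strand, with the longest run kept where a gene has several starts. Of 35116 promoter windows in the RefSeq table, 1429, or 4.07%, held such a run, and read on the opposite strand 728, or 2.07%, did. Windows were found for 44 members. The run was present in 10 of them: EIF2A, EIF2D, EIF2S3, EIF2S3L, EIF3D, EIF3F, EIF3K, EIF3M, EIF4A2 and EIF4B, with lengths from 5 to 10 bases.

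Of these 10, 5 fell (EIF2D, EIF2S3, EIF3D, EIF3F and EIF4B), 3 rose (EIF2A, EIF3K and EIF4A2) and 2 were not called, with a median log2 fold change of -0.24. Of the other 34 with a window, 31 were tested, and 19 rose, 2 fell (EIF1 and EIF5A2) and 10 were not called, with a median of 0.29. Over all tested genes with a window, 39.2% of the 768 with a run were lower and 28.5% higher, and of the 9934 without one 30.8% were lower and 33.6% higher, with medians of -0.073 and 0.0093. Among the elongation and termination factors, 3 hold a run: EEF2 and EEF1A1, with 7 bases each, fell, and EEF1B2, with 16 bases, rose by 0.11. None of the 25 initiation partners with a window held a run. Of the 4 with no window, 1 rose (PABPC4), 1 fell (PABPC1) and 2 were not called. The 8 members without a window in the table were EIF2S2, EIF3A, EIF3CL, EIF3E, EIF3G, EIF3H, EIF3L and EIF4EBP1. These could not be sorted, and 0 of them rose, 5 fell and 3 were not called, with a median of -0.15. Of all 7541 tested genes without a window, 23.5% were higher and 27.9% lower, with a median of -0.051. The sorting is a description of letters at annotated starts, which need not be the starts used in SW480 cells, and it was not tested.

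**Figure D4:**
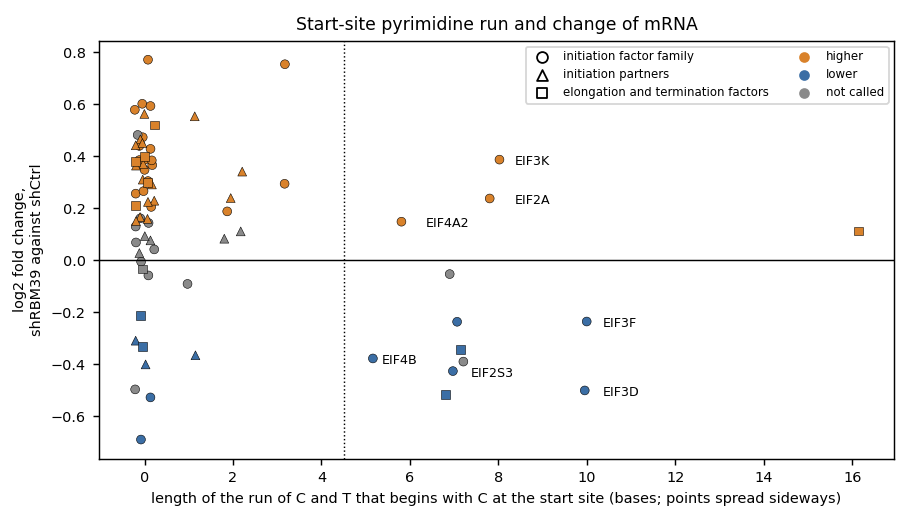
Log2 fold change of tested genes of the family (circles), the initiation partners (triangles) and the elongation and termination factors (squares) by the length of the C and T run at the start site, with points spread sideways and a dotted line at the minimum of 5 bases. Right of the line, 5 circles are blue (lower) and 3 orange (higher), while most circles left of it are orange.

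Over the 49 tested members, the log2 fold change had a Spearman correlation of 0.14 with the GC content of the canonical transcript, -0.13 with the mean CPM in shCtrl and 0.0098 with the purine content. These are descriptions across genes, which share the same 6 libraries.

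Splicing records of the members were read from the table made with rMATS, a program that compares inclusion of alternative exons between groups. The table lists 1582 records, all with a difference of at least 0.1 between the mean inclusion levels, and names its groups only 1 and 2. Which of them is the knockdown is not given in the sources used here, so no direction is drawn. Members have 4 records, and since records without a difference are not listed, the separation of the groups is part of the choice.

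The record with most reads is a skipped exon of EIF4E2, exon 3 of 7 of the canonical transcript (chr2:232557884-232558018, GRCh38), 135 bases of coding sequence. It is shown, on the plus strand, because its length of 45 whole codons leaves the reading frame intact when it is skipped, with the exon in capitals and 10 intronic bases before it and 6 after it in lower case.
EIF4E2 exon 3: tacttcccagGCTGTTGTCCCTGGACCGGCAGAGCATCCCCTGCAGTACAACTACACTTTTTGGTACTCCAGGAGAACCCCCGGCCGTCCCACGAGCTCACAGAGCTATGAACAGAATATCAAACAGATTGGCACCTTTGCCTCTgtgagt

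Its inclusion level, the share of transcripts that hold the exon, was 0.781, 0.805 and 0.780 in group 1 and 0.918, 0.862 and 0.901 in group 2, from 633 to 997 reads per library. Most EIF4E2 transcripts thus held the exon in both groups, and the groups did not overlap, with means of 0.789 ± 0.014 and 0.894 ± 0.029 (SD, n = 3). The next record concerns EIF4G1, where exons 3 and 4 of 33 (chr3:184315763-184315856 and chr3:184316132-184316218) are listed as mutually exclusive. The canonical transcript holds both exons. The level here weighs the first exon against the second and is not a share of all EIF4G1 transcripts. For the first exon it was 0.696, 0.717 and 0.717 in group 1 and 0.614, 0.549 and 0.641 in group 2, from 111 to 205 reads. In this record group 1 is the higher one, unlike in EIF4E2.

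The other 2 records rest on few reads. An 18-base exon of EIF4A1 (chr17:7578227-7578244), not part of the canonical transcript, was included at 0.798, 0.701 and 0.802 in the first group and at 0.893, 0.891 and 0.895 in the second, from 21 to 33 reads. A 79-base exon of EIF4E2 (chr2:232574263-232574341) was mostly skipped, with means of 0.058 ± 0.015 and 0.183 ± 0.096 (SD, n = 3), from 5 to 15 reads, which is at most 4 reads with the exon in any library. With at least 20 reads required in every library, 3 of the 4 records remained.

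**Figure D5:**
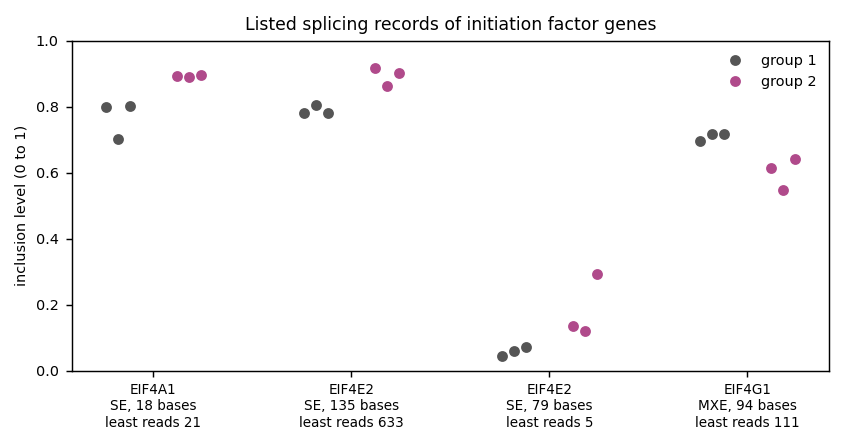
Inclusion level, from 0 to 1, of the 4 listed splicing records of members (SE, skipped exon; MXE, mutually exclusive exons), with 1 point per library in the table's group 1 (grey) and group 2 (purple) and the smallest number of reads in any library under each name. EIF4E2 exon 3, with at least 633 reads, has all group 2 points above all group 1 points.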

How the data were processed

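Groups and replicate numbers follow the sample titles, and columns named NC were read as shCtrl, since no other control group exists here. The authors deposited counts that are raw, 1 row per symbol, with merged exons. Trimmomatic 0.36, STAR 2.5.3a, featureCounts from Subread 1.5.1, edgeR 3.12.1 and GRCh38 are named in the submitters' processing notes, with no role or order. The treatment of multi-mapped reads, the use of strand in counting and the collapsing of unique identifiers are not given in the sources used here, and they bear on near copies (EIF3C and EIF3CL, EIF5A and EIF5AL1, EIF2S3 and EIF2S3L, EIF1AX and EIF1AY) and on overlapping genes. The deposited RPKM follow from the counts with a largest relative difference of 5.14e-15 and add no measurement of their own. The deposited splicing records, made by the authors with rMATS (version not given in the sources used here), hold reads and inclusion levels, which were used, and p-values, FDR and differences of the authors' own comparison, which were not. Gene positions are the outermost exon bounds in the count table. Of the member exons in it, 96.4% were identical to exons of GENCODE v44, from which canonical transcript lengths were taken.

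Counts were fitted with edgeR 4.0.16 in R 4.3.3 (filterByExpr, TMM scaling, quasi-likelihood, group as the only term) over all genes, with Benjamini-Hochberg adjustment over the 18243 tested and a threshold of 0.05. Members and gene lists were chosen with earlier results of these data known. Full statistics are given for called members whose mean is 5 CPM or more and whose absolute log2 fold change is 0.4 or more, and for other lists the 2 largest changes in each direction among called genes. Alternatives were DESeq2 1.42.0, other scalings and count filters, limma 3.58.1 on log2(RPKM + 1) and log2(RPKM + 0.1), a replicate block, leaving out each library, stricter thresholds, a correction for GC content and length, and, for the ratios of relatives, counts + 0.5 without length.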

Additional observations from a re-analysis of the deposited data

How the results depend on the processing

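Leaving out each library in turn gave 32 to 37 called members (22 to 23 higher, 10 to 14 lower), 20 to 24 called initiation partners and 11 to 12 called elongation and termination factors, and a log2 fold change of RBM39 from -0.70 to -0.63. The replicate block gave 35 members, 21 partners and 12 elongation and termination factors, with EIF1B added (adjusted p = 0.0485 in edgeR). The replicate numbers did not pair the samples, with correlations of 0.0058, -0.048 and 0.037 between libraries of the same number. Of the 34 called members, 29 kept their call in all 16 alternatives at the same threshold and none changed sign. Exceptions were EIF3C (both RPKM fits), EIF4A2 and EIF4H (those and library totals), EIF3E (without shRBM39 replicate 1) and EIF3H (the same, and both GC corrections). Library totals gave 20 lower members, and limma on RPKM 19 higher and 18 lower. Against a log2 fold change of 0.5, edgeR called 4 members, EIF4A3, EIF4E2 and EIF5A higher (3) and EIF4EBP1 lower (1), with 0 partners and 0 elongation and termination factors. At an adjusted p of 0.01 the count was 34. The alternative that keeps records by the FDR of the splicing table was not run, since that column is the authors' own comparison.

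Changes of sign occurred in members that were not called with TMM scaling. Of these, EIF3G with library totals passed as lower. With library totals, log2(RPKM + 1) and log2(RPKM + 0.1), the log2 fold changes were -0.082, -0.073 and -0.080 for EIF2B5, -0.027, -0.025 and -0.026 for EIF3CL, -0.090, -0.089 and -0.089 for EIF3G, and -0.055, -0.054 and -0.055 for EIF3J. With the GC correction alone and with the block, they were 0.028 and 0.025 for EIF3M, 0.0050 and 0.0051 for EIF4G3, 0.078 and 0.077 for EIF5, and 0.028 and 0.032 for EIF5B. Left-out libraries gave -0.12 to 0.0025 for EIF2S2, -0.00070 to 0.070 for EIF3G, -0.025 to 0.037 for EIF5 and -0.12 to 0.027 for EIF5B. DESeq2 gave 0.0065 and no count filter 0.0050 for EIF5. Ratios of relatives kept their sign in every alternative. Among members not called with TMM scaling, 1 left-out library brought a call for EIF2S3L (-0.54), EIF4EBP3 (-0.68) and EIF5AL1 (0.72) without shRBM39 replicate 2, for EIF3CL (0.15) and EIF3M (-0.13) without shRBM39 replicate 3, and for EIF4G3 (-0.11) and EIF5B (-0.12) without shCtrl replicate 2. Library totals brought calls as lower for EIF2S3L, EIF3M, EIF4EBP3, EIF4G3, EIF5 and EIF5B, and the GC correction a call as higher for EIF4ENIF1.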

Other observations

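The 72 processed copies left out by the rule held little signal. In all 6 libraries 21 of them were at 0, and together the copies had 0.55% to 0.689% as many counts as the family. Of the 14 that could be tested, 4 fell in edgeR's quasi-likelihood test and 10 were not called, against 29.9% of all genes that fell. Those that fell were EIF3FP3 and the EIF4B copies EIF4BP3, EIF4BP6 and EIF4BP7. The EIF4B copies had log2 fold changes of -0.34, -0.45 and -0.50, beside -0.38 for EIF4B itself. EIF3FP3, a copy of EIF3F, had 27.1 ± 0.994 CPM in shCtrl and 23.4 ± 1.24 CPM in shRBM39 (SD, n = 3). Its log2 fold change was -0.21 (SE 0.061), beside -0.24 (SE 0.041) for EIF3F itself. EIF2S2P4, a copy of EIF2S2, had 7.84 ± 0.0936 CPM in shCtrl and 7.06 ± 0.483 CPM in shRBM39 (SD, n = 3) and was not called, like its parent. Reads of a copy and its parent may be shared, and how they were assigned was not tested.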
